A study of Homo sapiens with 6 samples.

Results

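The genes described here are 39 components of the transforming growth factor beta (TGF-beta) and bone morphogenetic protein (BMP) pathway, taken by name from the 57820 genes in the count tables of an RNA-seq experiment. They comprise 11 ligand genes, 1 secreted protease, 5 type I receptors, 4 type II receptors, 1 co-receptor, 5 receptor-activated SMADs, the common SMAD, 2 inhibitory SMADs, 3 secreted antagonists, 1 nuclear corepressor, the 4 ID genes and 1 secreted target. Rows were picked by gene name alone, but the list of names was made with earlier results of these data known.

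TGF-beta, activin and BMP ligands are secreted dimers that assemble pairs of type II and type I receptor kinases at the cell surface. The type I receptor then phosphorylates receptor-activated SMAD proteins, SMAD2 and SMAD3 for TGF-beta and activin and SMAD1, SMAD5 and SMAD9 for BMP, which join SMAD4 and regulate genes in the nucleus. In bone, BMPs drive osteoblast differentiation, TGF-beta is stored in the matrix in a latent form, and the ID genes are direct BMP targets. Secreted antagonists such as noggin and follistatin bind the ligands, and the inhibitory SMADs and SKIL restrain the signal inside the cell.

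The experiment compared WT with ARID1A-KO AID-DIvA cells, with 3 samples of each genotype numbered 3 to 5. AID-DIvA cells are U2OS osteosarcoma cells that carry the AsiSI nuclease, which enters the nucleus and cuts DNA only when 4-hydroxytamoxifen is added. All 6 samples were untreated, so both genotypes carried the AsiSI construct without the inducer. ARID1A is a large subunit of a SWI/SNF chromatin remodeller that contacts DNA, and the knockout was made by CRISPR with 2 guide RNAs against its first exon, followed by isolation of clones. The samples of a genotype are described as biological replicates from separate experiments. The clone that was sequenced is not given in the sources used here, so the ARID1A-KO samples may share 1 clone, and genotype and clone cannot be told apart.

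ARID1A itself was measured at 166 to 178 CPM (read counts scaled to 1000000 per sample) in WT and at 25.1 to 27.5 CPM in ARID1A-KO samples, a log2 fold change of -2.74 (SE 0.07, edgeR adjusted p = 9.66e-08). Between 54512105 and 84088708 reads per sample fell on genes in the sense direction, and the 39 pathway genes took 0.187% to 0.217% of them. The osteoblast factor RUNX2 was present in every sample, at 11.5 to 18.8 CPM, whereas the later osteoblast markers SP7, IBSP and BGLAP did not exceed 0.180 CPM. Other osteoblast or mesenchymal markers were present, with SPP1 at 26.4 to 54.0 and ALPL at 5.74 to 11.8 CPM in WT samples. In ARID1A-KO samples these were at 11.8 to 19.5 and 1.54 to 2.06 CPM. SPARC and COL1A1 were at no less than 380 and 267 CPM in any sample, and COL1A2 did not exceed 0.270 CPM. Of the 10 osteoblast or mesenchymal markers listed, 7 were tested, and 1 was higher (VIM) and 4 were lower (SPARC, COL1A1, ALPL and SPP1) in ARID1A-KO cells. Their summed level was 3433 to 3855 CPM in WT and 4654 to 5234 CPM in ARID1A-KO samples, most of it VIM. Of the 5 epithelial markers 3 were lower and 1 was higher, and their sum went from 721 to 835 CPM down to 492 to 514 CPM. Haematopoietic markers summed to 1.72 to 2.91 CPM in WT and 0.338 to 0.898 CPM in ARID1A-KO samples, with CD3E at no more than 0.0150 CPM. Of the 2 that were tested PTPRC was lower, with means of 1.95 and 0.445 CPM (log2 fold change -2.10, SE 0.39, edgeR adjusted p = 0.00292). The endothelial markers CDH5 and VWF summed to at most 2.39 CPM, and neither was called. The part of these marker differences in the results below was not tested, and in bulk samples fewer cells of a type and less RNA per cell cannot be told apart.

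The pathway was split between genes that rose and genes that fell in ARID1A-KO cells. Of the 39 genes 38 passed the filter on low counts, and 23 of these were called, meaning an adjusted p under 0.05 in edgeR's quasi-likelihood test with adjustment over all 19599 genes tested. Of the 23, 11 were higher and 12 were lower. Over all genes tested 36.2% were called, 17.8% as higher and 18.4% as lower, against 60.5% of the pathway genes. Among the 13217 genes with a mean of at least 1 on the log2 CPM scale, 39.7% were called, and 36 pathway genes were in that range. The CPM of the genotypes did not overlap for 27 of the 38 pathway genes, and for 49.5% of all genes tested. With DESeq2, 24 pathway genes were called, against 35.1% of all genes.

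The changes were small. The median log2 fold change of the 38 genes was 0.10, against 0.0066 for all genes tested, and the median absolute log2 fold change was 0.30, against 0.27. Only FST passed an absolute log2 fold change of 1, while 6.11% of all genes with a mean of at least 1 on the log2 CPM scale were called and passed it. The genes that rose included TGFB3, BMP7, TGFBR2, SMAD1, NOG, ID1 and ID3, and the genes that fell included TGFB2, BMP2, BMP5, INHBA, SMAD3 and FST. With an offset for the GC content of each gene, the split of the calls was 13 higher and 7 lower in place of 11 and 12.

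**Figure D1:**
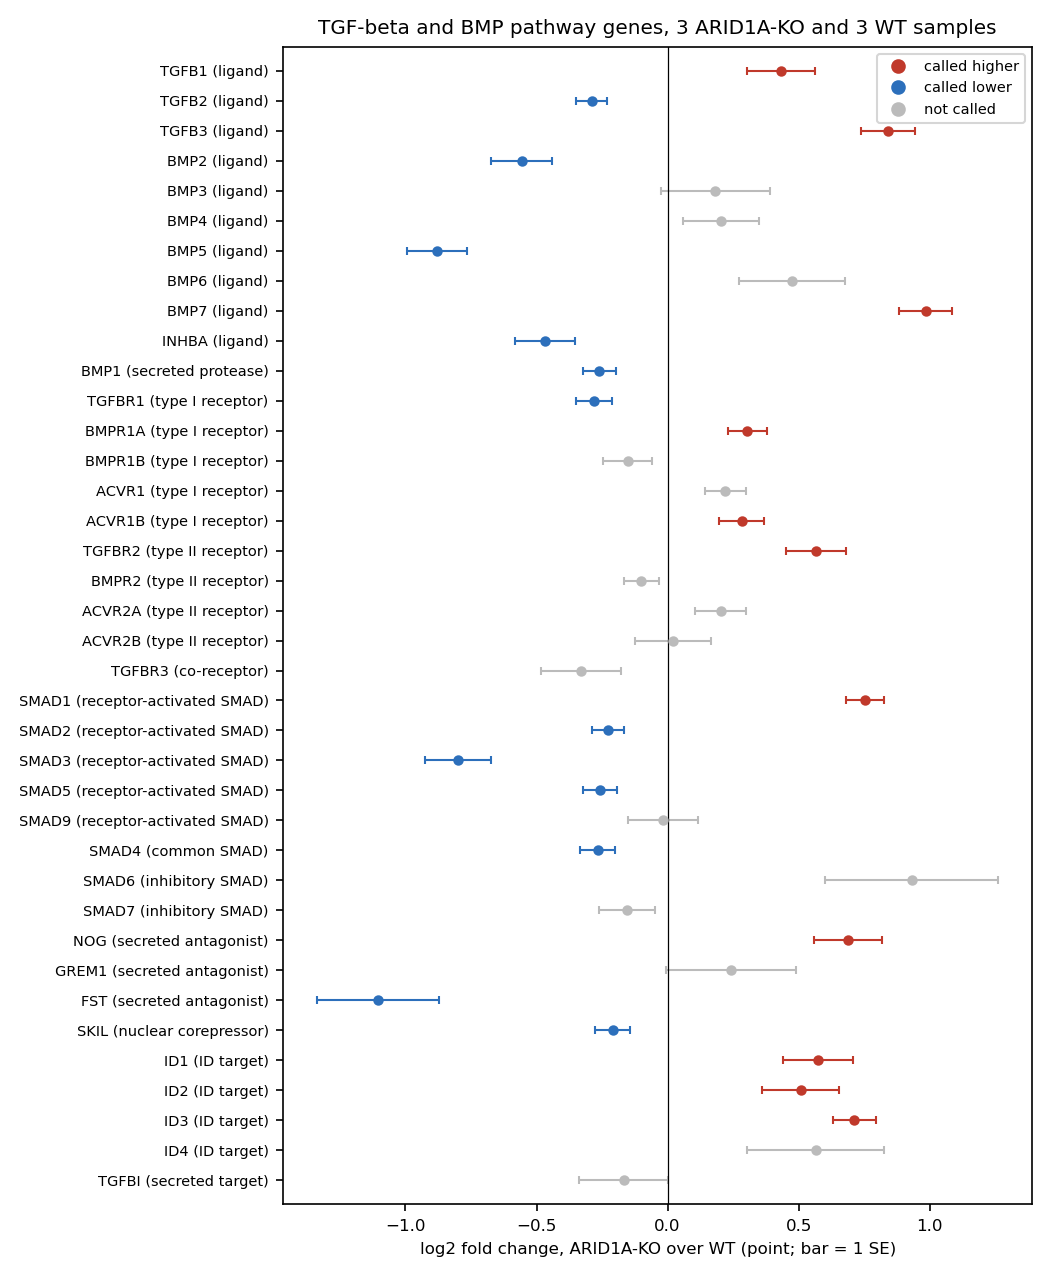
The log2 fold change of ARID1A-KO over WT for the 38 tested pathway genes, ordered by role, with points for the estimates and bars for 1 SE from 3 samples per genotype. Red points (11 genes) are called higher and blue points (12 genes) called lower, and the values run from -1.10 for FST to 0.98 for BMP7.

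Among the ligands, 7 of the 10 tested genes changed, 3 up and 4 down. BMP7, a ligand of kidney and bone development, had the largest rise of the pathway genes that were called. It was at 8.74, 9.57 and 10.9 CPM in WT replicates 3, 4 and 5 and at 19.9, 19.7 and 18.1 CPM in ARID1A-KO replicates 3, 4 and 5. The lowest ARID1A-KO sample was above the highest WT sample, with a log2 fold change of 0.98 (SE 0.10, edgeR adjusted p = 9.15e-05). BMP7 (ENSG00000101144.8) lies on the minus strand at chr20:55743804-55841685 in GRCh37.

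BMP5, which acts in skeletal patterning, moved the other way. It was at 45.4, 40.2 and 47.1 CPM in WT and at 21.8, 21.6 and 28.5 CPM in ARID1A-KO samples. All 3 ARID1A-KO samples were below the WT samples, although replicate 5 was closer to them, and the log2 fold change was -0.88 (SE 0.12, edgeR adjusted p = 0.000387). BMP5 (ENSG00000112175.6) lies on the minus strand at chr6:55618443-55740362 in GRCh37. BMP2, a potent inducer of bone formation, also fell, from 8.84, 10.2 and 10.2 CPM in WT to 6.67, 7.33 and 5.86 CPM in ARID1A-KO samples (log2 fold change -0.56, SE 0.12, edgeR adjusted p = 0.00531).

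The remaining BMP ligands did not pass the test. BMP4 overlapped between the genotypes, at 19.0 to 28.0 CPM in WT and 23.8 to 31.1 CPM in ARID1A-KO samples (log2 fold change 0.20, SE 0.14). BMP6 was at 6.45, 10.1 and 7.46 CPM in WT and at 12.5, 12.7 and 8.19 CPM in ARID1A-KO samples (log2 fold change 0.47, SE 0.20, edgeR adjusted p = 0.0976). ARID1A-KO replicate 5 lay within the WT range, and BMP6 passed the test when that sample (adjusted p = 0.0168) or WT replicate 4 (adjusted p = 0.0226) was left out. With all samples it was called by DESeq2 (adjusted p = 0.0463), by edgeR with the replicate number as a block (0.0352) and without the filter on low counts (0.0017). Its adjusted p ranged from 0.0017 to 0.285 over the alternatives. BMP3, which opposes the osteogenic BMPs, was measured at 0.447 to 0.546 CPM (log2 fold change 0.18, SE 0.21). The protease BMP1, which cleaves procollagen and the antagonist chordin and is no ligand, fell by 0.26 on the log2 scale (SE 0.06, edgeR adjusted p = 0.0104), with an adjusted p of 0.0515 without ARID1A-KO replicate 3 and a range of 0.00243 to 0.0515.

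The 3 TGF-beta genes did not move together. TGFB3 was at 6.07, 5.40 and 5.91 CPM in WT and at 9.68, 10.8 and 10.6 CPM in ARID1A-KO samples, without overlap. Its log2 fold change was 0.84 (SE 0.10, edgeR adjusted p = 0.000251). TGFB2 was almost equal in the WT samples, at 146, 148 and 147 CPM, and lower in each ARID1A-KO sample, at 116, 118 and 127 CPM (log2 fold change -0.29, SE 0.06, edgeR adjusted p = 0.00433). TGFB1, the main form stored in bone matrix, was at 86.0, 77.0 and 105 CPM in WT and at 103, 118 and 139.9 CPM in ARID1A-KO samples.

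TGFB1 passed the test with all samples (log2 fold change 0.43, SE 0.13, edgeR adjusted p = 0.0286), but its genotypes overlapped at WT replicate 5 and ARID1A-KO replicate 3. With 1 sample left out, its adjusted p was 0.101 for WT replicate 3, 0.0740 for WT replicate 4, 0.0611 for ARID1A-KO replicate 4 and 0.0824 for ARID1A-KO replicate 5. Over the alternatives it ranged from 7.1e-07, without the filter on low counts, to 0.101. The next lowest value was 0.00214, with the replicate number as a block.

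Per exonic length, TGFB1 was above TGFB2 in every ARID1A-KO sample, while WT samples had no single order of these genes. TPM divides read counts by the annotated exonic length of the gene and scales them to 1000000 per sample. Orders between genes therefore depend on that length. TGFB1 was at 77.7 to 105 TPM and TGFB2 at 93.0 to 94.0 TPM in WT samples, so that TGFB2 lay within the range of TGFB1. In ARID1A-KO samples TGFB1 was at 101 to 146 and TGFB2 at 70.8 to 83.3 TPM, without overlap, and TGFB3 stayed far below both, at 3.59 to 4.11 TPM in WT and 6.21 to 7.31 TPM in ARID1A-KO samples.

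INHBA, the gene of the activin A subunit, was at 93.5, 130.5 and 118 CPM in WT and at 87.7, 83.5 and 76.4 CPM in ARID1A-KO samples. The groups were separated by the gap between WT replicate 3 and ARID1A-KO replicate 3, and the log2 fold change was -0.47 (SE 0.11, edgeR adjusted p = 0.0108). INHBB, the gene of the activin B subunit, did not pass the filter on low counts. It had 5, 5 and 4 counts in WT and 13, 7 and 16 counts in ARID1A-KO samples.

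Of the 5 type I receptors, 2 rose and 1 fell, each by at most 0.30 on the log2 scale. TGFBR1, the type I receptor of TGF-beta, was at 33.1 to 37.5 CPM in WT and at most 29.3 CPM in ARID1A-KO samples (log2 fold change -0.28, SE 0.07, edgeR adjusted p = 0.0109). With the GC offset the change of TGFBR1 was -0.16 and was not called (adjusted p = 0.0698), and neither was it with its neighbours taken off (0.0888, range 0.0026 to 0.0888 over the alternatives). BMPR1A, a BMP receptor, was at 37.8 to 43.2 CPM in WT and 46.9 to 52.7 CPM in ARID1A-KO samples (log2 fold change 0.30, SE 0.07, edgeR adjusted p = 0.011), a rise that was absent with the change of its chromosomal neighbours taken off (-0.012, adjusted p = 0.922, range 0.00141 to 0.922). The activin receptor ACVR1B rose by a log2 fold change of 0.28 (SE 0.09, edgeR adjusted p = 0.0289), but not when WT replicate 3 (0.0926), WT replicate 5 (0.0956), ARID1A-KO replicate 3 (0.0862) or ARID1A-KO replicate 4 (0.125) was left out, with adjusted p from 0.00916 to 0.125 over the alternatives. ACVR1 (0.22, SE 0.08, edgeR adjusted p = 0.0559) and BMPR1B (-0.15, SE 0.10, edgeR adjusted p = 0.242) were not called, although their CPM did not overlap between the genotypes. ACVR1 passed the test when WT replicate 4 or ARID1A-KO replicate 5 was left out, and with the replicate number as a block (adjusted p = 0.0329). Its adjusted p ranged from 0.00688 to 0.193 over the alternatives.

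TGFBR2, the type II receptor of TGF-beta, was the type II receptor that changed. It was at 92.4, 122 and 109 CPM in WT and at 170.3, 170.4 and 138 CPM in ARID1A-KO samples. Each ARID1A-KO sample was above each WT sample, and the log2 fold change was 0.57 (SE 0.11, edgeR adjusted p = 0.00429). TGFBR2 (ENSG00000163513.13) lies on the plus strand at chr3:30647994-30735634 in GRCh37. In TPM it rose from 65.3 to 84.8 in WT to 99.1 to 118 in ARID1A-KO samples, whereas its partner TGFBR1 was at 15.8 to 17.9 in WT and 13.5 to 14.4 in ARID1A-KO samples.

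The other type II receptors were not called. BMPR2 had a log2 fold change of -0.10 (SE 0.07), ACVR2A of 0.20 (SE 0.10) and ACVR2B of 0.02 (SE 0.14). The co-receptor TGFBR3, or betaglycan, which presents TGF-beta2 to its receptors, was at 9.24 to 13.7 CPM in WT and 8.36 to 10.6 CPM in ARID1A-KO samples (log2 fold change -0.33, SE 0.15, edgeR adjusted p = 0.125). Without WT replicate 4 it was called (adjusted p = 0.0185), as it was without the filter on low counts (0.0302). Its adjusted p ranged from 0.0185 to 0.365 over the alternatives.

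Among the receptor-activated SMADs, the largest changes were in SMAD1, which rose, and SMAD3, which fell. SMAD1, which carries the BMP signal, was at 23.8, 26.3 and 26.1 CPM in WT and at 45.3, 40.7 and 42.5 CPM in ARID1A-KO samples. The samples of each genotype lay close together, and the log2 fold change was 0.75 (SE 0.07, edgeR adjusted p = 6.54e-05). SMAD3, which carries the TGF-beta and activin signal, was at 179, 132 and 177 CPM in WT and at 85.4, 88.7 and 107 CPM in ARID1A-KO samples. WT replicate 4 and ARID1A-KO replicate 5 were the nearest samples of the 2 genotypes and still did not overlap, and the log2 fold change was -0.80 (SE 0.13, edgeR adjusted p = 0.00115). SMAD1 (ENSG00000170365.5) lies on the plus strand at chr4:146402346-146479231 and SMAD3 (ENSG00000166949.11) on the plus strand at chr15:67356101-67487533 in GRCh37.

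The other members of the same 2 branches fell by less or were not called. SMAD2 fell by 0.23 on the log2 scale (SE 0.06, edgeR adjusted p = 0.0167), SMAD5 by 0.26 (SE 0.07, edgeR adjusted p = 0.0129) and the common SMAD4 by 0.27 (SE 0.07, edgeR adjusted p = 0.0118). SMAD9 did not pass the test (log2 fold change -0.02, SE 0.13, edgeR adjusted p = 0.934). The SMAD2 call was lost when WT replicate 5 (adjusted p = 0.0527) or ARID1A-KO replicate 4 (0.0585) was left out. With the GC offset the adjusted p was 0.155 for SMAD2, 0.0874 for SMAD5 and 0.0844 for SMAD4. Over all alternatives it ranged from 0.0105 to 0.171 for SMAD2, from 0.00436 to 0.0874 for SMAD5 and from 0.00362 to 0.107 for SMAD4.

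Per exonic length, SMAD3 was the highest receptor-activated SMAD in both genotypes, at 47.3 to 65.4 TPM in WT and 29.6 to 39.6 TPM in ARID1A-KO samples. SMAD5 followed at 28.3 to 31.1 and 24.4 to 25.3 TPM. SMAD2 was above SMAD1 in WT, at 18.3 to 19.7 against 13.1 to 14.2 TPM, and below it in ARID1A-KO samples, at 16.1 to 16.4 against 22.0 to 23.8 TPM. SMAD9 was the lowest in each genotype, at 3.82 to 5.00 and 3.96 to 4.46 TPM. All neighbours in these orders were separated in every sample, including SMAD5 and SMAD1 in ARID1A-KO samples. The exonic length was 13770 bases for SMAD2 and 6058 for SMAD1, so their order depends on these annotated lengths.

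Neither inhibitory SMAD was called. SMAD6, which blocks BMP signalling, was at 5.62, 3.44 and 5.31 CPM in WT and at 6.08, 6.53 and 14.6 CPM in ARID1A-KO samples. The genotypes did not overlap, but ARID1A-KO replicate 5 stood far above the other samples, and the log2 fold change of 0.93 had an SE of 0.33 (edgeR adjusted p = 0.0528). With that sample left out the log2 fold change was 0.40 with an adjusted p of 0.157. Leaving out ARID1A-KO replicate 3 gave 0.0278 and ARID1A-KO replicate 4 gave 0.0397. With all samples it was called with unstranded counts (0.0496), with the replicate number as a block (0.0151) and without the filter on low counts (1.58e-09). The range over the alternatives was 1.58e-09 to 0.157. SMAD7, which blocks TGF-beta and BMP receptors, overlapped at 14.4 to 15.4 CPM in WT and 11.5 to 15.2 CPM in ARID1A-KO samples (log2 fold change -0.16, SE 0.11).

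**Figure D2:**
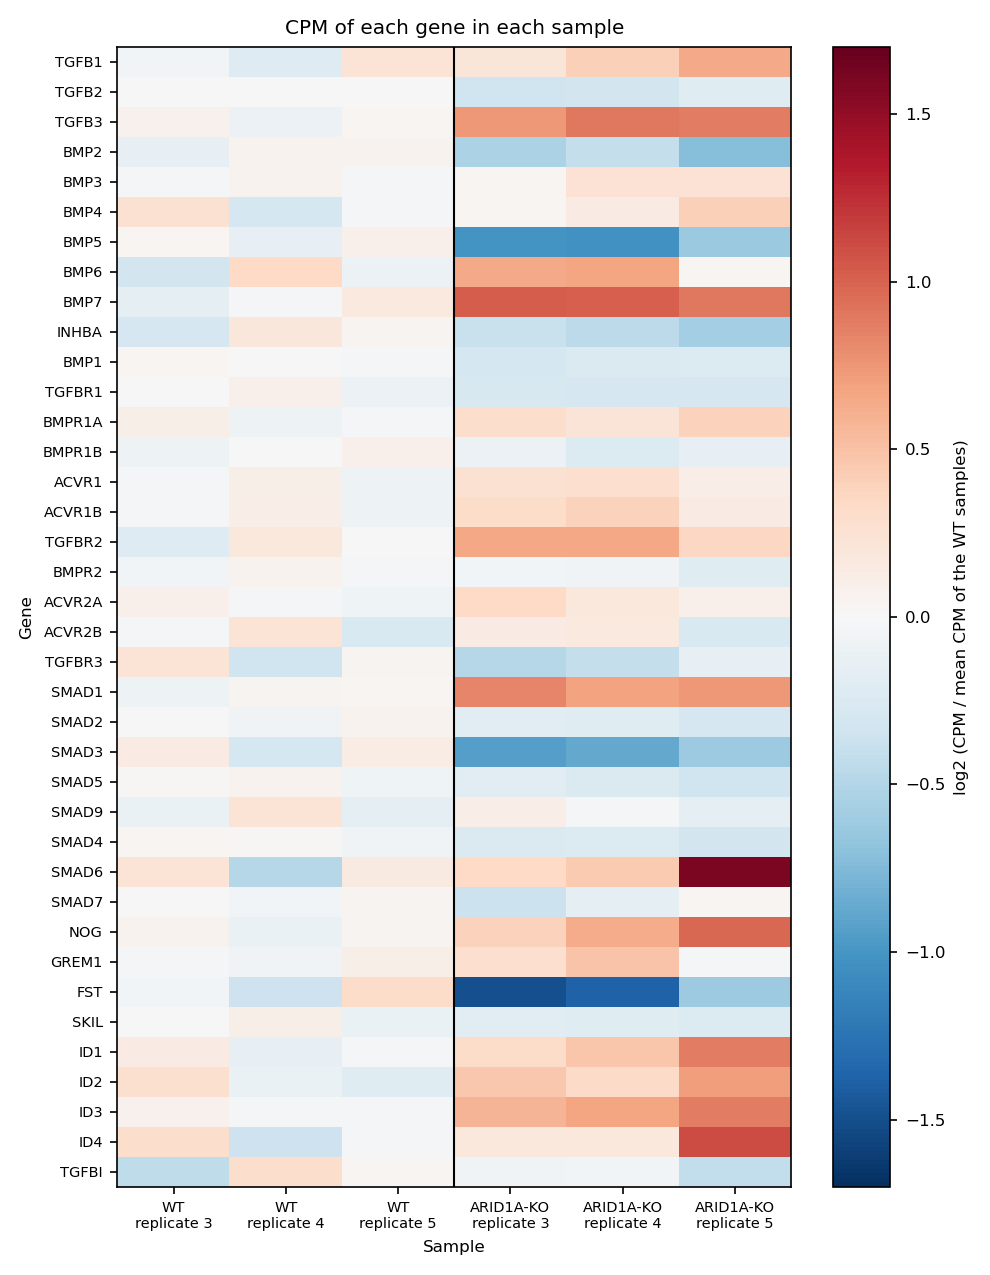
CPM of the 38 tested pathway genes (rows) in the 6 samples (columns), drawn as the log2 ratio to the mean of the 3 WT samples, with red above and blue below that mean and a line between the genotypes. BMP7, SMAD1 and ID3 are above the WT mean and BMP5, SMAD3 and FST below it in all 3 ARID1A-KO samples, while SMAD6 and ID4 stand out in ARID1A-KO replicate 5.

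The antagonists of the ligands changed in opposite directions. FST encodes follistatin, which binds activins and, more weakly, BMPs, and it had the largest change of the pathway genes, at 55.6, 45.1 and 71.4 CPM in WT and at 20.4, 22.1 and 37.3 CPM in ARID1A-KO samples. ARID1A-KO replicate 5 was nearest to the WT samples, without overlap. The log2 fold change was -1.10 (SE 0.23, edgeR adjusted p = 0.00525), and ran from -1.43 without ARID1A-KO replicate 5 to -0.92 over the fits that left out 1 sample. FST (ENSG00000134363.7) lies on the plus strand at chr5:52776239-52782964 in GRCh37, and the 34 other tested genes within 5 Mb had a median log2 fold change of -0.08.

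FST and its ligand gene INHBA thus both fell, and their levels can be compared per exonic length. FST was at 49.6 to 78.3 TPM and INHBA at 41.3 to 56.6 TPM in WT samples. In ARID1A-KO samples FST was at 21.7 to 42.5 TPM and INHBA at 34.4 to 36.7 TPM. The ranges of the 2 genes overlapped in both genotypes.

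The promoter of FST is shown because FST changed most. The sequence holds the 250 bases before the gene start in RefSeq (GRCh38.p14, chr5:53480379-53480628, plus strand, 5′ to 3′). A match to the pattern TGANTCA, in which N is any base, is in capitals and has T at N.
FST: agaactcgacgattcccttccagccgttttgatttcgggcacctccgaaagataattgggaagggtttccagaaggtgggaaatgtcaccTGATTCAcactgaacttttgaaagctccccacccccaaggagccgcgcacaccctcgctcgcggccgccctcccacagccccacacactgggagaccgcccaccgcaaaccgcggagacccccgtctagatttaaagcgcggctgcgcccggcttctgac

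That match lies 160 to 154 bases before the start. Among 35116 human promoter windows of the same length, 6.57% held TGANTCA on either strand. The match is a description of the sequence, and binding at it was not measured.

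NOG, which encodes the BMP antagonist noggin, rose. It was at 54.3, 48.6 and 54.2 CPM in WT and at 68.9, 81.0 and 103 CPM in ARID1A-KO samples. The ARID1A-KO samples differed among themselves more than the WT samples did, and all were above them (log2 fold change 0.69, SE 0.13, edgeR adjusted p = 0.00301). NOG (ENSG00000183691.4) lies at chr17:54671060-54672951 on the plus strand in GRCh37. Per exonic length it was the highest of the 3 antagonists, at 83.9 to 95.5 TPM in WT and 115 to 185 TPM in ARID1A-KO samples. GREM1, another BMP antagonist, was at 0.324 to 0.473 CPM over all samples and was not called (log2 fold change 0.24, SE 0.25). SKIL, a corepressor that binds SMAD proteins in the nucleus and is induced by TGF-beta, fell by 0.21 on the log2 scale (SE 0.07, edgeR adjusted p = 0.034), from 70.4 to 81.2 CPM in WT to 64.9 to 66.3 CPM in ARID1A-KO samples. Leaving out WT replicate 3 gave an adjusted p of 0.0673 for SKIL, WT replicate 4 of 0.105, ARID1A-KO replicate 3 of 0.0850, ARID1A-KO replicate 4 of 0.103 and ARID1A-KO replicate 5 of 0.0644. With the GC offset its log2 fold change was -0.090 (adjusted p = 0.276), and with the change of its chromosomal neighbours taken off it was called in the opposite direction (0.34, adjusted p = 0.0042), which are the ends of the range over the alternatives.

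All 4 ID genes had a positive fold change and 3 of them were called. ID proteins bind basic helix-loop-helix transcription factors and keep them from DNA. ID3 was at 110.4, 102 and 102 CPM in WT and at 157, 168 and 191 CPM in ARID1A-KO samples. The genotypes were well separated, with a log2 fold change of 0.71 (SE 0.08, edgeR adjusted p = 0.000177). ID1 was at 168, 139 and 150.5 CPM in WT and at 189.9, 212 and 279 CPM in ARID1A-KO samples (log2 fold change 0.57, SE 0.13, edgeR adjusted p = 0.00867). Per exonic length ID1 was the highest of the 39 genes, at 369 to 454 TPM in WT and 486 to 767 TPM in ARID1A-KO samples. ID3 followed, at 185 to 204 and 275 to 361 TPM.

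ID2 and ID4 were far lower and less certain. ID2 was at 9.41, 7.26 and 6.80 CPM in WT and at 10.8, 9.79 and 12.8 CPM in ARID1A-KO samples (log2 fold change 0.51, SE 0.15, edgeR adjusted p = 0.0244). Its adjusted p with 1 sample left out was 0.0593 for WT replicate 4, 0.0879 for WT replicate 5, 0.0515 for ARID1A-KO replicate 3 and 0.0689 for ARID1A-KO replicate 5, and ranged from 0.000604 to 0.0879. ID4 was at 9.17, 5.85 and 7.41 CPM in WT and at 8.45, 8.44 and 16.1 CPM in ARID1A-KO samples and was not called (log2 fold change 0.56, SE 0.26, edgeR adjusted p = 0.122). ARID1A-KO replicate 5 was the highest sample for all 4 ID genes, and without it the log2 fold change of ID4 was 0.18. ID1 (ENSG00000125968.7) lies at chr20:30193086-30194318 on the plus strand and ID3 (ENSG00000117318.8) at chr1:23884409-23886285 on the minus strand in GRCh37.

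The promoters of the 4 ID genes are shown because these paralogs had the same direction of change. Each is the 250 bases before a gene start in RefSeq (GRCh38.p14, 5′ to 3′), with matches to CAGAC, the short SMAD-binding box, in capitals. ID1 is from chr20:31605039-31605288 (plus strand), ID2 from chr2:8681806-8682055 (plus), ID3 from chr1:23559502-23559751 (minus) and ID4 from chr6:19837120-19837369 (plus).
ID1: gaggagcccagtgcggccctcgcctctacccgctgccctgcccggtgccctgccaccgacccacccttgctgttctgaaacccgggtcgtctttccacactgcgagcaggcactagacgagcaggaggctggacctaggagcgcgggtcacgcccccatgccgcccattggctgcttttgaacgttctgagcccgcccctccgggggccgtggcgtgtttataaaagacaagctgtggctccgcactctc
ID2: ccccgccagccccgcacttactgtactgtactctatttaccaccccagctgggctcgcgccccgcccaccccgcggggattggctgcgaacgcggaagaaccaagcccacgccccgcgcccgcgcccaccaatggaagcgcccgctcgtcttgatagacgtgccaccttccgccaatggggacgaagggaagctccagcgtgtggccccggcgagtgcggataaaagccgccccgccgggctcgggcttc
ID3: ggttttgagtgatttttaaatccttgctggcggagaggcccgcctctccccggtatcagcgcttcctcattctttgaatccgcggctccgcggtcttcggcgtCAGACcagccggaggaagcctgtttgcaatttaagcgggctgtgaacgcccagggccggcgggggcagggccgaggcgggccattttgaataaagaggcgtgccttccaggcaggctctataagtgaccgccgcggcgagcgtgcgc
ID4: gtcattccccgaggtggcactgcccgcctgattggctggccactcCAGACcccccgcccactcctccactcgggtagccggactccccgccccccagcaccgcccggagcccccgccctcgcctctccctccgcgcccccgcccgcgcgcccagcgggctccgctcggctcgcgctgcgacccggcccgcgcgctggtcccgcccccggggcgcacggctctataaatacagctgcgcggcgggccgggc

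Both strands were searched for 4 motifs, of which none contains another: the GC-rich SMAD motif GGCGCC, the box CAGAC, the palindromic SMAD motif GTCTAGAC and TGANTCA. A match to CAGAC lay 147 to 143 bases before the start in ID3 and 205 to 201 bases before it in ID4, GGCGCC matched in none of the 5 windows printed, and ID1 and ID2 held none of the 4 motifs. Of 35116 promoter windows 38.0% held CAGAC, 16.4% GGCGCC and 0.182% GTCTAGAC. The 34 pathway genes with an entry had 62 windows, of which 22 held CAGAC, 15 GGCGCC, 1 GTCTAGAC and 4 TGANTCA. A motif outside these 250 bases is not covered by this search.

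TGFBI, a matrix protein induced by TGF-beta, overlapped between the genotypes. It was at 158, 264 and 219 CPM in WT and at 204, 207 and 159.6 CPM in ARID1A-KO samples (log2 fold change -0.17, SE 0.17, edgeR adjusted p = 0.479). The WT samples alone spanned the values of the ARID1A-KO samples.

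**Figure D3:**
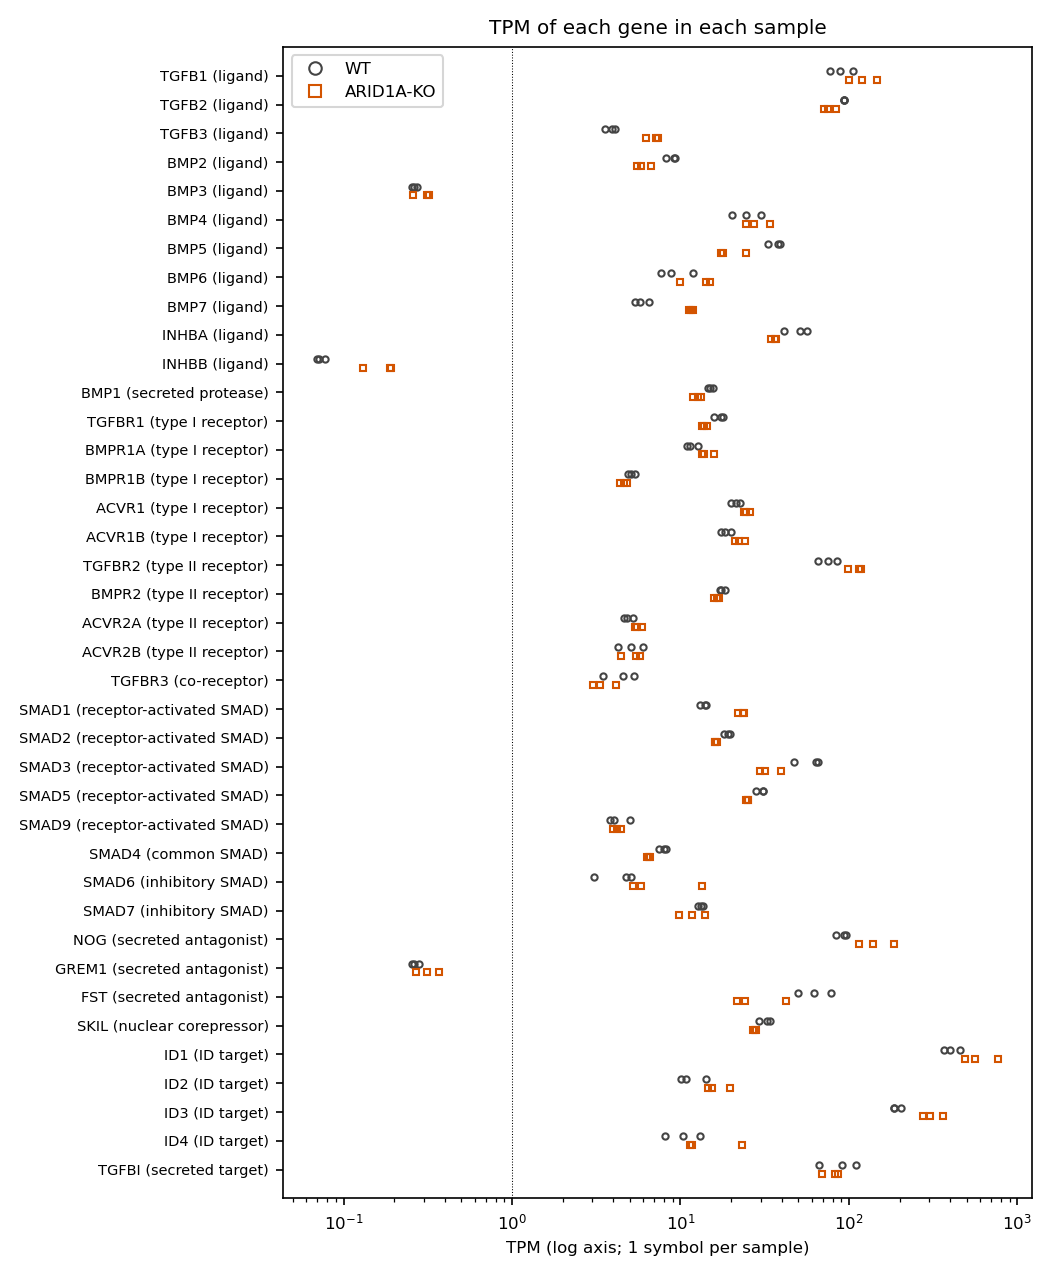
TPM of the 39 pathway genes on a log axis, with 1 circle for each WT and 1 square for each ARID1A-KO sample and a dotted line at 1 TPM. ID1 and ID3 are the highest and BMP3, GREM1 and INHBB lie below 1 TPM in both genotypes.

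Most of the pathway was expressed in both genotypes. In WT cells 36 of the 39 genes had a mean of at least 1 TPM, and 36 had in ARID1A-KO cells. Below 1 TPM were BMP3 (0.263 in WT and 0.297 in ARID1A-KO cells), GREM1 (0.266 and 0.317) and INHBB (0.0732 and 0.170). Among the ligands, TGFB1, TGFB2, INHBA, BMP5 and BMP4 were the highest in WT cells, with means of 90.5, 93.6, 49.7, 36.7 and 24.9 TPM. In WT cells BMP4, at 20.2 to 30.2 TPM, was below BMP5, at 33.2 to 38.8 TPM. In each ARID1A-KO sample BMP4 was above BMP5, although the ranges, 24.4 to 34.1 and 17.4 to 24.4 TPM, met.

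Some of the genes lie in regions where many genes moved together, so each was set beside the other tested genes within 5 Mb. The neighbours of SMAD1 had a median log2 fold change of -0.54 (36 genes), opposite to SMAD1, and with this median taken off the change of SMAD1 was 1.29. The neighbours of TGFB3 had a median of 0.42 (87 genes), and TGFB3 was still called with it taken off (log2 fold change 0.42, edgeR adjusted p = 0.0123, range 4.93e-11 to 0.0123 over the alternatives). For BMP5 the median was -0.25 (35 genes), and the change became -0.63 (edgeR adjusted p = 0.0031, range 1.74e-20 to 0.0031).

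For other genes the neighbours changed the call. BMPR1A had neighbours with a median of 0.32 (53 genes), so its own change and theirs were nearly equal. SKIL had neighbours with a median of -0.55 (29 genes), below its own change, so that it turned to 0.34 (edgeR adjusted p = 0.0042). ID1, with neighbours at 0.24 (94 genes), went to 0.34 and lost its call (edgeR adjusted p = 0.0828, range 1.2e-11 to 0.0828). TGFB2 (0.0671, range 0.000186 to 0.0671), TGFB1 (0.0723), TGFBR1 (0.0888), SMAD4 (0.107) and SMAD2 (0.171) lost theirs, by edgeR adjusted p. ACVR1, whose neighbours had a median of -0.15 (35 genes), gained a call (log2 fold change 0.37, edgeR adjusted p = 0.00688, range 0.00688 to 0.193), as it did with the GC offset (0.32, adjusted p = 0.00796). With the neighbours taken off from every gene, 17 pathway genes were called, 10 higher and 7 lower. In that fit 6289 of all 19599 genes tested were called, 3006 higher and 3283 lower, against 7099 without the offset. What moved these regions was not tested.

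**Figure D4:**
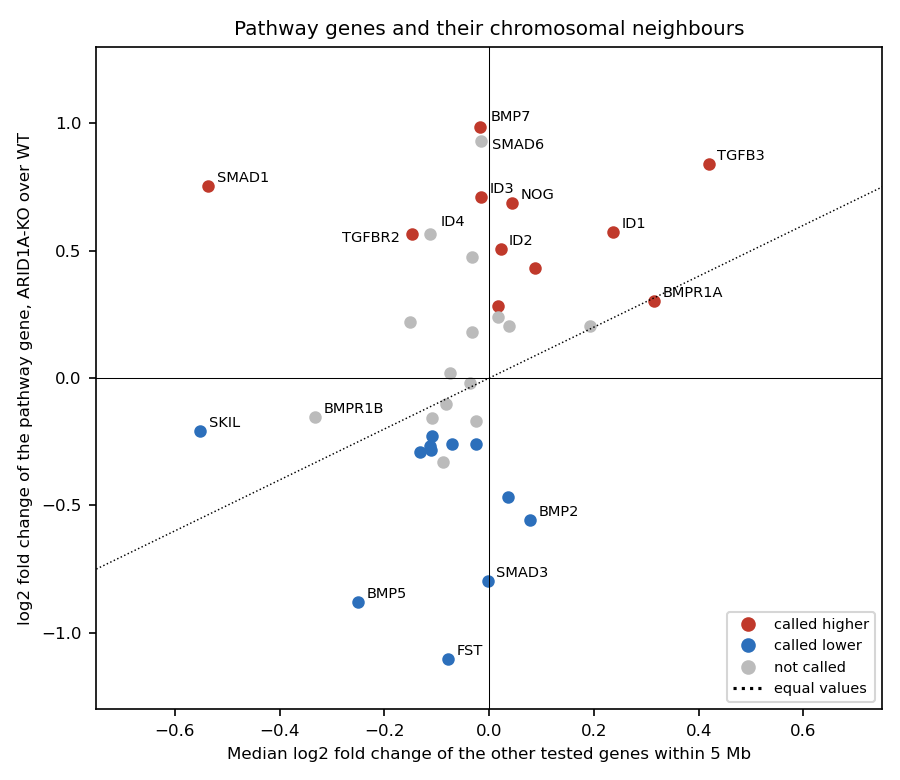
The log2 fold change of each tested pathway gene (vertical axis) against the median log2 fold change of the other tested genes within 5 Mb (horizontal axis), with red for genes called higher, blue for called lower, grey for not called and a dotted line where both are equal. SMAD1 lies opposite to its neighbours, BMPR1A close to the dotted line, and BMP7, SMAD3, ID3 and FST near a neighbour median of 0.

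Of the 23 calls, 11 held in each of 14 alternative fits. They were TGFB3, BMP7, TGFBR2, SMAD1, NOG and ID3, which rose, and BMP2, BMP5, INHBA, SMAD3 and FST, which fell. In the 6 fits that left out 1 sample, 17 of the 23 calls held in every fit.

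The wider pathway was examined with a further list of 73 genes, of which 54 were tested and 21 were called, 11 higher and 10 lower. That share, 38.9%, was close to the 36.2% over all genes, and the median log2 fold change was 0.13. By role, 3 of 11 tested ligands were higher, 2 of 7 receptors or co-receptors were lower, 5 of 10 secreted antagonists were lower and 1 was higher, 2 of 6 genes of latency and activation were lower and 1 was higher, 3 of 11 intracellular regulators were higher, and of 9 response genes 3 were higher and 1 was lower. A total of 12 of the 21 called genes passed an absolute log2 fold change of 1, against 1 of the 23 called genes above.

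Secreted proteins that bind the ligands or hold them in the matrix were among the largest falls. FSTL1, a follistatin-like glycoprotein that binds BMP4, was at 527, 368 and 494 CPM in WT and at 91.9, 88.3 and 91.3 CPM in ARID1A-KO samples. The ARID1A-KO samples were close to each other and far below all WT samples (log2 fold change -2.36, SE 0.12, edgeR adjusted p = 2.79e-06), and its neighbours had a median of -0.43. LTBP1, which anchors latent TGF-beta in the matrix, fell from 83.5, 105 and 91.4 CPM to 33.5, 33.0 and 31.2 CPM (log2 fold change -1.52, SE 0.09, edgeR adjusted p = 4.08e-06). THBS1, or thrombospondin 1, which can activate latent TGF-beta, fell from 537, 998 and 664 CPM to 260.2, 268 and 252 CPM (log2 fold change -1.50, SE 0.19, edgeR adjusted p = 0.000309). The genotypes of LTBP1 and THBS1 did not overlap, with WT replicate 4 the highest sample for both.

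Genes with lower levels fell as well. BMPER, a secreted BMP modulator, went from 4.78 to 6.46 CPM down to 1.58 to 2.24 CPM (log2 fold change -1.49, edgeR adjusted p = 0.000241). ATOH8, a BMP response gene, had a log2 fold change of -1.60 (edgeR adjusted p = 0.0259), with overlapping genotypes and an adjusted p, with 1 sample left out, of 0.102 for WT replicate 3, 0.0712 for WT replicate 5, 0.0834 for ARID1A-KO replicate 3 and 0.0793 for ARID1A-KO replicate 4 (range 1.96e-13 to 0.102).

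The largest rises were in genes with few reads or in response genes. NRROS, which holds latent TGF-beta at the cell surface, went from at most 0.113 CPM to 0.485 to 0.946 CPM (log2 fold change 2.96, edgeR adjusted p = 0.000304), and the antagonist SOSTDC1 from at most 0.0704 CPM to 0.216 to 0.308 CPM (2.22, edgeR adjusted p = 0.00215). The ligand GDF7 rose from 1.29 to 1.51 CPM to 2.95 to 3.26 CPM (1.15, edgeR adjusted p = 0.00029). BMP8A, at most 0.454 CPM, was called higher (1.38, edgeR adjusted p = 0.0291), but BMP8B is nearly identical in sequence, so the assignment of its reads is uncertain. BMP8A lost its call with DESeq2 (0.0656), with unstranded counts (0.189) and when WT replicate 3 (0.103), WT replicate 5 (0.0916), ARID1A-KO replicate 3 (0.0560) or ARID1A-KO replicate 5 (0.0946) was left out, with a range from 0.00277 to 0.189.

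Among the response genes, HEY1, a target of BMP and Notch signalling, went from 3.71 to 5.37 CPM up to 9.73 to 11.4 CPM, without overlap (log2 fold change 1.18, SE 0.14, edgeR adjusted p = 0.000257). CCN2, or connective tissue growth factor (CTGF in the tables), was at 404, 904 and 587 CPM in WT and at 1069, 1094 and 840.0 CPM in ARID1A-KO samples and was not called (0.66, SE 0.24, edgeR adjusted p = 0.0585). WT replicate 4 lay within the ARID1A-KO range of CCN2, and without it the log2 fold change was 1.01 (adjusted p = 0.00158). Without ARID1A-KO replicate 5 the adjusted p of CCN2 was 0.0441, and with the replicate number as a block it was 0.0115. Over the alternatives it ranged from 1.12e-13, without the filter on low counts, to 0.165. PMEPA1, a TGF-beta target that feeds back on SMAD signalling, overlapped at 82.6 to 115 CPM in WT and 75.4 to 107 CPM in ARID1A-KO samples (-0.15, SE 0.14).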

How the data were processed

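RNA was extracted from untreated cells, and the methods name a stranded total RNA library kit with paired-end sequencing, while the labels give the molecule as polyA RNA. The authors aligned the reads with STAR in the Roddy workflow to hg19 (GRCh37) and counted them per gene with featureCounts. The deposited tables hold read counts for the reverse strand and without regard to strand, and TPM made by the authors from these counts. Reverse-strand counts were used, and forward-strand counts came to 5.83% to 6.15% of them. Counting error was not given apart from the spread between samples.

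Samples were grouped by the genotype in the labels. Counts were filtered with filterByExpr, scaled by TMM, and tested with edgeR 4.0.16 (glmQLFit and glmQLFTest, R 4.3.3) between 3 ARID1A-KO and 3 WT samples without covariates, with Benjamini-Hochberg adjustment over all genes tested and calls at an adjusted p under 0.05. CPM used the TMM-scaled library sizes, and SE is the log2 fold change divided by the root of F. The common biological coefficient of variation was 0.111. The first principal component (79.8% of the variance of genes with a log2 CPM above 1) separated the genotypes. Samples of 1 genotype differed by more than sampling noise (chi-square per gene 7.38 to 33.6). The scripts were tested on simulated data. Alternatives were unstranded counts, RLE scaling, DESeq2 1.42.0, a minimum of 10 counts in every sample, no filter, a replicate block, leaving out single samples, a threshold of 0.01, the median of neighbours within 5 Mb as an offset, and a loess offset on exon GC content (span 0.3, GRCh37, 97.0% of tested genes).

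The pathway genes and lists were chosen with earlier results of these data known. Per-sample values were planned for called genes with an absolute log2 fold change of at least 1 and no overlap, which FST alone met. Those of the other pathway genes, and the ID promoters, were added after their values were seen. From the further list, genes called with an absolute log2 fold change of at least 1 are named, with CCN2 and PMEPA1; some listed genes are not reported here. Promoters came from RefSeq (GRCh38.p14), matched by symbol for 34 of 39 genes. Their coordinates are of another build than those of the counts. PECAM1, an endothelial marker, was not analysed here. Figures were drawn with matplotlib 3.10.9.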

Additional observations from a re-analysis of the deposited data

How the results depend on the processing

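The 38 tested pathway genes kept their direction and side of the threshold in 497 of 570 comparisons of a fold change with its value under an alternative. Of the rest 42 lost and 19 gained a call without a change of sign, and 12 changed sign. Among those 12, with the neighbours taken off, BMPR1A also lost its call and SKIL was called in the opposite direction. For the other named genes 202 of 221 did not change, 15 lost and 4 gained a call. At an adjusted p under 0.01, which is stricter by construction, 4414 genes in all, 12 pathway genes (7 higher and 5 lower) and 13 genes of the further list were called. Leaving out 1 sample gave 5285 to 7050 calls in all, 20 to 23 pathway genes and 15 to 24 genes of the further list. The count of genes at or above 1 TPM in WT cells was 36 under every alternative, from 36 to 36 with 1 WT sample left out. The GC offset gave 4052 higher and 3401 lower calls in all.

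The fold changes that changed sign were mostly near 0, and the cause was not tested. With the neighbours taken off they were BMPR1A (-0.012), BMPR1B (0.18), SMAD9 (0.018) and SKIL (0.34, called). With the GC offset they were BMPR2 (0.020) and SMAD9 (0.086). With 1 sample left out, the log2 fold change of ACVR2B ran from -0.095 to 0.15 (negative for WT replicate 5, ARID1A-KO replicate 3 and ARID1A-KO replicate 4), that of SMAD9 from -0.090 to 0.11 (positive for WT replicate 4 and ARID1A-KO replicate 5) and that of TGFBI from -0.35 to 0.012 (positive for WT replicate 4). Without the filter, 29 of 68 tested genes of the further list were called, and 8223 of 36390 genes in all. That fit gave the lowest adjusted p of the ranges for TGFB1, BMP5, BMP6, SMAD6 and CCN2.

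Whether the replicate numbers pair the samples could not be settled, since the deviations of 3 samples from their own mean depend on each other. The deviations from the genotype means correlated at -0.24 for replicates 3, 0.49 for replicates 4 and 0.32 for replicates 5 (Pearson's r across 13081 genes, which are not independent). Not every sample correlated best with its own number, since WT replicate 3 was nearest to ARID1A-KO replicate 5 (0.41). With the replicate block, 7477 genes were called in all, 26 pathway genes (14 higher and 12 lower) and 27 genes of the further list.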

Other observations

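ARID1A-KO replicate 5 was the highest or the lowest of its genotype for 33 of the 38 tested pathway genes (86.8%), and WT replicate 4 for 32 of them (84.2%). Over all genes tested the shares were 80.2% and 70.4%. ARID1A-KO replicate 5 had the most reads on genes, 84088708, and also the highest share of reads on the 39 genes, 0.217%.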
